A study of Mus musculus with 15 samples.

Results

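The receptors described here are the T-cell receptor beta chains (TCRβ) that carry a joining segment of the TRBJ1 cluster, TRBJ1-1 to TRBJ1-6. Members were all entries of the 15 libraries with a TRBV family and a J gene of the TRBJ1 cluster, and the segment was read from the last amino acids of the CDR3, the loop of the beta chain that spans the V-D-J junction. They numbered 17493 of 59364 clonotypes, a clonotype being 1 distinct nucleotide CDR3 in 1 library. The remaining 41871 used the TRBJ2 cluster. TRBJ1-1 was found in 4973 clonotypes, TRBJ1-4 in 3663, TRBJ1-3 in 2708, TRBJ1-2 in 2302, TRBJ1-6 in 2020 and TRBJ1-5 in 1319, and 508 (2.90%) ended in none of the 6 motifs and stayed unassigned. Of these 508, 465 matched a segment by their last 12 nucleotides.

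The donors were 125-day-old non-obese diabetic (NOD) mice, a strain prone to autoimmune loss of its beta cells. They were either wild type (WT) or labelled as Ifngr-1-mutant, after the gene for a chain of the interferon-γ receptor. TET libraries hold CD8+ T cells that bound a tetramer of H-2Kd with the IGRP206–214 peptide of a pancreatic beta cell antigen, and CD8 libraries hold CD8+CD44+ T cells of the flow-through that did not bind it. Spleen and non-draining lymph nodes were pooled, so no cell was taken from the pancreas. There were 3 WT TET, 4 mutant TET, 4 WT CD8 and 4 mutant CD8 libraries, each from a different mouse within its group. TET and CD8 libraries of the same strain and number were taken as the same mouse, which the labels do not state outright. The libraries hold TCRβ transcripts only, so no other marker of the sorted cells could be read.

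A beta chain gene is built in the thymus by joining a D segment to a J segment and then a V segment to that D-J unit. The mouse locus holds a pair of D-J blocks in tandem, TRBD1 followed by the TRBJ1 cluster and then TRBD2 followed by the TRBJ2 cluster. TRBD1 can therefore join either cluster by deletion of the DNA in between, whereas TRBD2 lies downstream of TRBJ1. The J segment encodes the C-terminal end of the CDR3, and the D segment with added and trimmed bases encodes its middle.

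In the RefSeq annotation of GRCm38.p6, TRBD1 lies at chr6:41533201-41533212 and is followed by TRBJ1-1 at chr6:41533864-41533911, TRBJ1-2 at chr6:41534001-41534048, TRBJ1-3 at chr6:41534323-41534372, TRBJ1-4 at chr6:41534811-41534861, TRBJ1-5 at chr6:41535084-41535133 and TRBJ1-6 at chr6:41535554-41535606. TRBJ1-7 is also annotated, at chr6:41535642-41535687, and was not among the segments looked for. TRBD2 follows at chr6:41542163-41542176. The 6 segments differ in how many bases they can give to the CDR3. The untrimmed CDR3 part of each is printed from 5′ to 3′ as read in clonotypes without a J mismatch, with the bases that encode the ending used to assign the segment in capitals:

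TRBJ1-1: caaacacaGAAGTCTTCTTT

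TRBJ1-2: caaactccGACTACACCTTC

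TRBJ1-3: ttctggaAATACGCTCTATTTT

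TRBJ1-4: tttccaacgaaAGATTATTTTTC

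TRBJ1-5: taacaaccagGCTCCGCTTTTT

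TRBJ1-6: ttcctataattcgCCCCTCTACTTT

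These stretches run from 20 bases in TRBJ1-1 and TRBJ1-2 to 25 bases in TRBJ1-6. As a check of the assignment, the J length given in the tables differed from the usual one of its segment in 5 of 16985 assigned clonotypes.

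The TET libraries were small in WT mice. They held 102, 126 and 97 clonotypes in WT TET, against 997, 2199, 1631 and 393 in mutant TET and 2040 to 9827 in the 8 CD8 libraries. The TRBJ1 members among them numbered 41, 41 and 24 in WT TET, 440, 986, 707 and 139 in mutant TET, and 555 to 2717 in CD8. Total counts ran from 2536 to 60164 in TET and from 17116 to 32856 in CD8. Values for WT TET thus rest on few clonotypes, and intervals given for single libraries cover counting error only.

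Among tetramer-binding clonotypes TRBJ1 was used more often than in the CD8 fraction in 6 of 7 mice with all clonotypes counted, and in 4 of 7 at equal depth. TRBJ1 made up 44.1%, 44.8%, 43.3% and 35.4% of clonotypes in the mutant TET libraries. In the mutant CD8 libraries it made up 28.5%, 26.98%, 27.9% and 25.7%, and in WT CD8 27.2%, 30.4%, 30.7% and 28.4%. With all clonotypes counted, each mutant TET library lay above each CD8 library. Of the WT TET libraries, 2 lay above the CD8 range and 1 below it, at 40.2% (95% exact interval 30.6 to 50.4), 32.5% (24.5 to 41.5) and 24.7% (16.5 to 34.5).

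The group means were 32.5% ± 7.73 in WT TET (SD, n = 3), 41.9% ± 4.41 in mutant TET (n = 4), 29.2% ± 1.66 in WT CD8 (n = 4) and 27.3% ± 1.25 in mutant CD8 (n = 4). Averaged over the strains, the share was 8.99 percentage points higher in TET than in CD8 (two-sided exact permutation test within strains, p = 0.00816, adjusted p = 0.0347 over 17 exact tests). The mouse with the lower share in TET was WT mouse 3, at 24.7% against 30.7%. With the mouse as replicate block the difference was 9.69 points (exact sign-flip test, p = 0.0469, adjusted p = 0.114), and without clonotypes of a single count it was 7.90 (exact p = 0.0457, adjusted p = 0.111). At an equal depth of 2536 counts it was 6.99 points (exact p = 0.0722, adjusted p = 0.154), and there mutant TET library 4 held 22.3% TRBJ1 clonotypes, below all 8 CD8 libraries (25.4% to 30.6%). WT TET libraries 2 (26.8%) and 3 (24.7%) were then also below the CD8 libraries of their mice (30.2% and 30.6%). Leaving out WT TET library 1 or 2, WT CD8 library 1 or 4, or any mutant CD8 library also ended the call, with adjusted exact p up to 0.0694 and differences from 7.06 to 9.20 points. Over all alternatives the adjusted p ran from 0.0081 to 0.154.

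The comparison of strains asks whether a mutated interferon-γ receptor goes with another J use. In TET the TRBJ1 share was 9.43 points higher in mutant than in WT mice, with overlapping libraries (exact permutation p = 0.0857, adjusted p = 0.162). In CD8 it was 1.89 points lower in the mutant, again with overlap (difference -1.89, exact p = 0.143, adjusted p = 0.243). The strain difference in TET exceeded that in CD8 by 11.6 points over the 7 mice with both fractions (exact p = 0.0571, adjusted p = 0.121). None of these passed the threshold of 0.05, and 3 against 4 libraries cannot give an exact p below 0.0286.

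**Figure D1:**
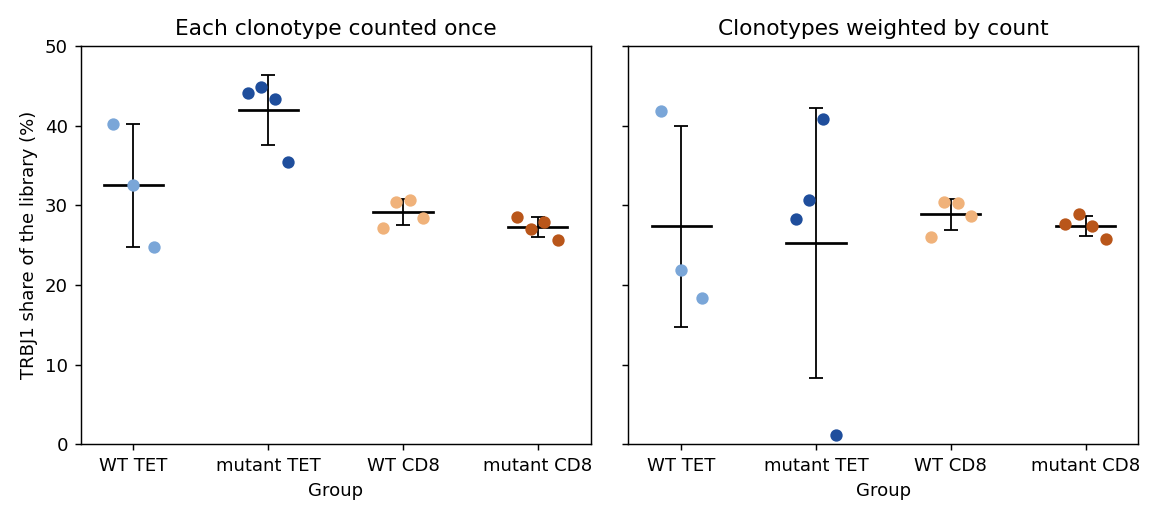
Share of TRBJ1 in each library (%, vertical axis) by group, with each clonotype counted a single time (left) and weighted by its count (right). Points are libraries, and the bar and whiskers are the mean ± SD. On the left the 4 mutant TET libraries lie between 35.4% and 44.8%, above all CD8 libraries, and on the right mutant TET library 4 falls to 1.22%.

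All 6 TRBJ1 segments were higher in TET than in CD8 in a fit that pooled the strains. With the 12 J segments of both clusters fitted together (edgeR quasi-likelihood test, strain as covariate, Benjamini-Hochberg adjustment), 11 of 12 segments (91.7%) differed between TET and CD8. All 6 TRBJ1 segments were higher in TET, 50% of all segments tested, while 41.7% were lower, all of them in TRBJ2, so the 6 higher calls are the 6 members. Since shares sum to a fixed whole, a rise of some segments lowers the others. The median log2 fold change was 0.65 over the TRBJ1 segments and 0.19 over all 12. TMM factors lowered the TRBJ1 values to 0.37, 0.62, 0.41, 0.52, 0.61 and 0.23 for TRBJ1-1 to TRBJ1-6, without a change of sign.

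TRBJ1-2 and TRBJ1-5 had the largest fold changes. With all clonotypes counted, each was higher in every TET library of both strains than in every CD8 library. How many of the 12 J segments separate in this way, in either direction, was not counted, and 11 of 12 were called in the fit. The separation is thus not shown to be particular to these segments. Single segments were not compared at equal depth, where the share of the whole cluster fell to 22.3% in mutant TET library 4 and 26.8% in WT TET library 2. TRBJ1-2, whose germline end encodes an aspartate and tyrosine before the closing residues, made up 6.86%, 7.14% and 4.12% of clonotypes in WT TET and 6.82%, 6.91%, 5.46% and 4.83% in mutant TET. In CD8 it lay between 3.10% and 3.98%, so all 7 TET libraries were above all 8 CD8 libraries. The log2 fold change was 0.80 ± 0.11 (SE, edgeR adjusted p = 7.4e-11). TRBJ1-5 made up 3.92%, 4.76% and 7.22% in WT TET and 3.11%, 3.50%, 3.43% and 3.31% in mutant TET. Its CD8 libraries held 1.90% to 2.84%, again with no overlap, and the log2 fold change was 0.78 ± 0.14 (edgeR adjusted p = 1.6e-07).

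TRBJ1-4, one of the segments with a longer CDR3 part, was higher in all mutant TET libraries than in CD8 with all clonotypes counted. It made up 11.1%, 9.00%, 9.56% and 9.41% of clonotypes in mutant TET, above all CD8 libraries, which held 5.14% to 6.62%. WT TET held 7.84%, 7.14% and 3.09%, on both sides of the CD8 range. The log2 fold change over all libraries was 0.70 ± 0.09 (edgeR adjusted p = 1.9e-11), and with the WT libraries alone it was 0.02 ± 0.32 (edgeR adjusted p = 0.945).

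TRBJ1-1, the segment nearest to TRBD1 and the most used member in CD8 libraries, made up 10.3%, 12.7%, 12.5% and 8.91% in mutant TET. WT TET held 11.8%, 6.35% and 5.15%, and CD8 7.30% to 9.04%, so 3 of 4 mutant TET libraries and 1 of 3 WT TET libraries lay above the CD8 range and the other 2 WT TET libraries below it. Its log2 fold change was 0.55 ± 0.08 over all libraries (edgeR adjusted p = 2e-09) and -0.14 ± 0.28 in the WT libraries alone.

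TRBJ1-3 and TRBJ1-6 lay below the mouse's own CD8 library in all 3 WT mice and above it in all 4 mutant mice. TRBJ1-3 made up 3.92%, 4.76% and 2.06% in WT TET, against 3.97%, 5.08% and 4.93% in the CD8 libraries of the same mice, and 6.32%, 7.003%, 6.56% and 4.33% in mutant TET, against 4.35%, 4.01%, 4.26% and 3.74%. TRBJ1-6, the member farthest from TRBD1, made up 2.94%, 0.79% and 2.06% in WT TET, all below the CD8 range of 3.13% to 3.70%, and 4.81%, 4.91%, 4.60% and 3.82% in mutant TET, all above it. The 3 WT values of TRBJ1-6 rest on 3, 1 and 2 clonotypes. Over all libraries the log2 fold change was 0.59 ± 0.11 for TRBJ1-3 (edgeR adjusted p = 1.6e-07) and 0.41 ± 0.12 for TRBJ1-6 (edgeR adjusted p = 0.0011; 0.23 with TMM factors, adjusted p = 0.0567). In the WT libraries alone it was -0.37 ± 0.40 and -0.79 ± 0.53. TRBJ2 segments were not compared mouse by mouse in this way.

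Fitted in the mutant libraries alone, 11 of 12 segments were called and all 6 TRBJ1 segments were higher in TET, from 0.48 ± 0.09 for TRBJ1-6 to 0.80 ± 0.12 for TRBJ1-2 on the log2 scale (edgeR adjusted p of 0.00031 or less). Fitted in the WT libraries alone, TRBJ1-5 passed the threshold (log2 fold change 1.26 ± 0.40, edgeR adjusted p = 0.0303), TRBJ1-2 did not (0.73 ± 0.35, edgeR adjusted p = 0.171), and TRBJ1-1, TRBJ1-3 and TRBJ1-6 had a negative value. The mutant libraries hold most of the TET clonotypes on which the pooled values rest.

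**Figure D2:**
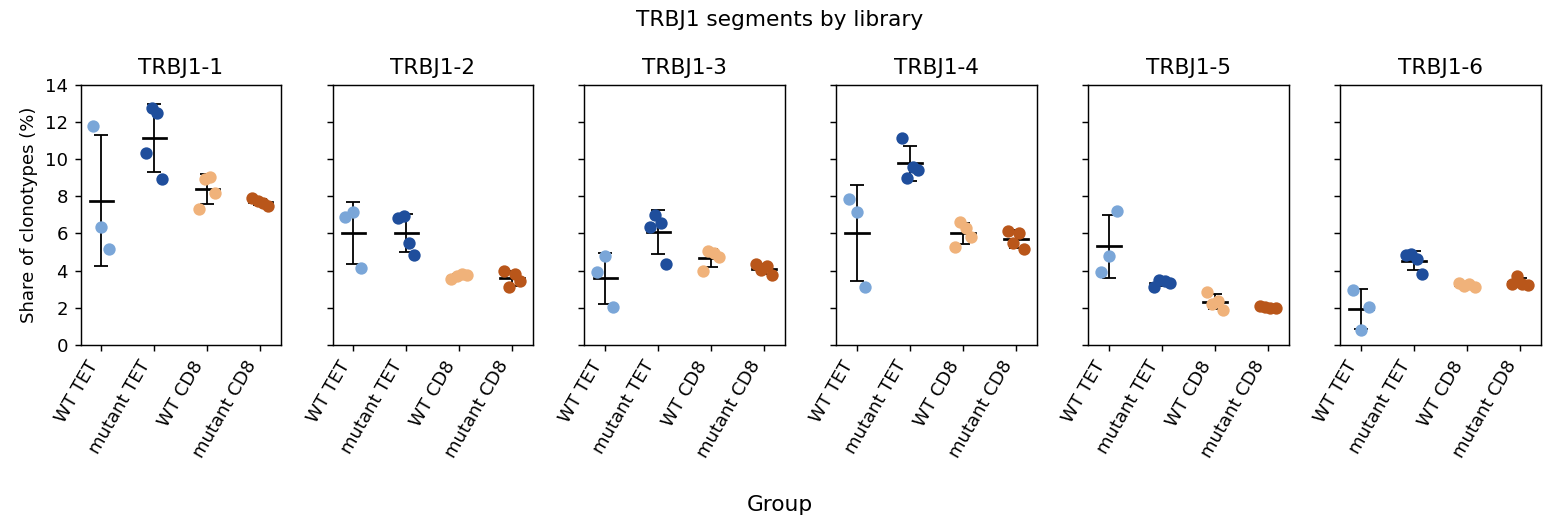
Share of each TRBJ1 segment among the clonotypes of a library (%, vertical axis) by group. Points are libraries and bars the mean ± SD. TRBJ1-2 and TRBJ1-5 lie above CD8 in TET of both strains, whereas TRBJ1-6 lies below CD8 in WT TET and above it in mutant TET.

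Between the strains, no J segment passed the threshold within TET (0% of 12, edgeR), although 5 had an unadjusted p under 0.05, 4 of them TRBJ1 segments. TRBJ1-6 had the largest value, 1.33 ± 0.47 higher in the mutant on the log2 scale (edgeR adjusted p = 0.105). TRBJ1-3 (0.80 ± 0.37), TRBJ1-4 (0.64 ± 0.30) and TRBJ1-1 (0.60 ± 0.29) each had an adjusted p of 0.106, TRBJ1-2 was at 0.01 ± 0.32 and TRBJ1-5 at -0.64 ± 0.35. Without mutant TET library 4, 2 segments passed, 1 of them in TRBJ1. DESeq2 gave 0 calls as well.

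Within CD8, 1 of 12 segments (8.33%) differed between the strains, and it was TRBJ1-3. Its share was 3.97%, 5.08%, 4.93% and 4.73% in WT CD8 and 4.35%, 4.01%, 4.26% and 3.74% in mutant CD8. It was lower in the mutant, with a log2 fold change of -0.23 ± 0.07 (edgeR adjusted p = 0.0215), but the library ranges overlapped. The call was lost with DESeq2 (-0.19, adjusted p = 0.11) and without any of WT CD8 libraries 2 or 3 or mutant CD8 libraries 2 or 4 (adjusted p from 0.0888 to 0.173), and over all alternatives the adjusted p ran from 0.0036 to 0.173.

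The strain difference itself differed between TET and CD8 for 6 of 12 segments (50%, edgeR), 4 of them TRBJ1 segments, all with the higher strain difference in TET. The contrast was 1.26 ± 0.53 for TRBJ1-6 (edgeR adjusted p = 0.04996), 1.03 ± 0.39 for TRBJ1-3 (0.0349), 0.75 ± 0.28 for TRBJ1-1 (0.0349) and 0.74 ± 0.31 for TRBJ1-4 (0.04996) on the log2 scale. TRBJ1-2 (0.07 ± 0.34) and TRBJ1-5 (-0.53 ± 0.40) were not called. With TMM factors or DESeq2 2 segments were called and none was a TRBJ1 segment, with adjusted p of 0.0934 or more for these 4. Over all alternatives the adjusted p of these 4 ran from 0.0186 to 0.372. No segment was called without WT TET library 2 or 3, mutant TET library 2 or 3, WT CD8 library 3 or mutant CD8 library 4, or without clonotypes that recur across libraries at a count at least 10 times lower than elsewhere. The direction of these 4 contrasts was the same in each of these settings.

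Weighted by counts, a higher TRBJ1 share in TET was not seen. TRBJ1 made up 41.8%, 21.9% and 18.3% of counts in WT TET, 28.3%, 30.7%, 40.9% and 1.22% in mutant TET and 25.8% to 30.4% in CD8. The means were 27.3% ± 12.7, 25.3% ± 16.9, 28.8% ± 2.00 in WT CD8 and 27.4% ± 1.27 in mutant CD8, and the difference of TET from CD8 was -1.83 points (exact permutation p = 0.744, adjusted p = 0.790). It was 2.18 points in the other direction without mutant TET library 4 and 0.42 without WT TET library 3. In the fit of counts none of the 12 segments was called (0%, edgeR), with 2 at an unadjusted p under 0.05, neither in TRBJ1, and DESeq2 called 3, 1 of them in TRBJ1. TRBJ1-5 (0.80 ± 0.57) and TRBJ1-6 (-1.37 ± 0.75) had the values farthest from 0 among the TRBJ1 segments on the log2 scale.

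In each mutant TET library the TRBJ1 share was lowest among clonotypes with 100 counts or more. This was not tested with libraries as replicates, and pooled clonotypes are not replicates of mice. In pooled mutant TET, TRBJ1 made up 41.6% of the 1698 clonotypes with a single count, 44.4% of the 2107 with 2 to 9 counts and 46.3% of the 1350 with 10 to 99. The library means of these classes were 41.4% ± 0.50, 43.1% ± 4.34 and 42.1% ± 9.08 (SD, n = 4), and mutant TET library 4 went from 40.7% to 36.8% and 28.9%, so no order among them holds in every library. Of the 65 clonotypes with 100 counts or more, 6 used TRBJ1, a share of 9.23% (95% exact interval 3.46 to 19.0). These 6 were 1 of 13 in library 1, 0 of 12 in library 2, 5 of 14 in library 3 and 0 of 26 in library 4. In pooled WT TET the shares of the 4 size classes were 38.2%, 31.9%, 32.6% and 21.9%, the last from 7 of 32 clonotypes. Their intervals, for counting error only, overlapped. The 7 were 5 of 8 (62.5%) in WT TET library 1, 2 of 22 in library 2 and 0 of 2 in library 3, so library 1 went the other way. In CD8 the share stayed between 26.9% and 29.7% in the 3 lower classes of both strains, and 12 clonotypes reached 100 counts.

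Because depth differs between libraries, a count of 100 is a different share of each. The mean log2 count per clonotype was 0.39 lower for TRBJ1 than for TRBJ2 within TET libraries (difference -0.39, exact sign-flip p = 0.328, adjusted p = 0.398) and differed by -0.02 within CD8 (exact p = 0.273, adjusted p = 0.358). The TET value was positive in 3 of 7 libraries and ranged from -1.68 in WT TET library 2 and -1.20 in mutant TET library 4 to 0.81 in WT TET library 1. Without the first 2 of these libraries the mean was 0.04, an alternative chosen after the data were seen.

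**Figure D3:**
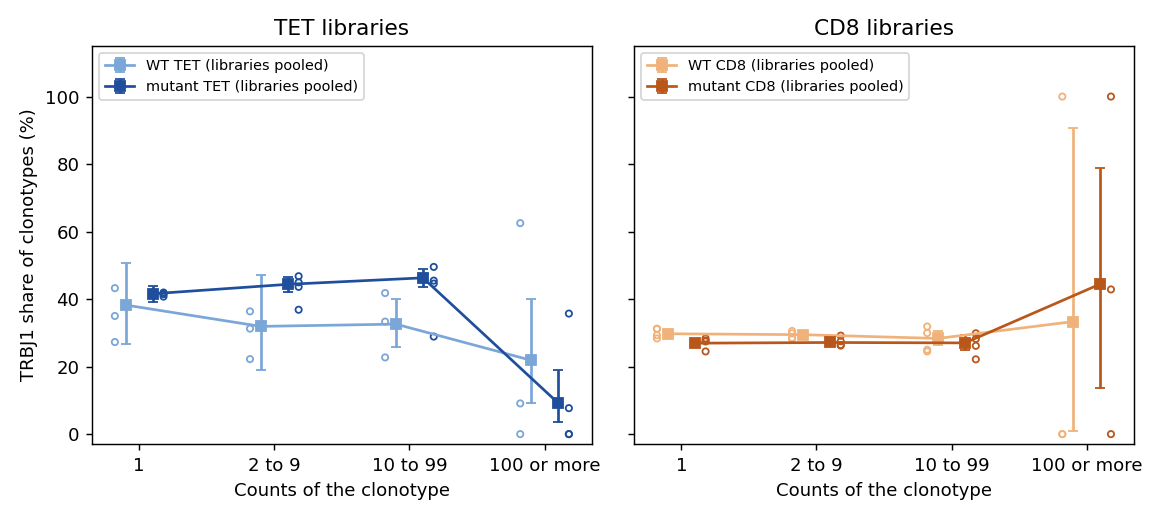
TRBJ1 share of clonotypes (%, vertical axis) by the count of the clonotype (horizontal axis), for TET libraries (left) and CD8 libraries (right). Squares are libraries pooled with 95% exact intervals for counting error, and open circles are single libraries. In mutant TET the share is 41.6% to 46.3% in the 3 lower classes and 9.23% among clonotypes with 100 counts or more.

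The largest TRBJ1 clonotypes show where the counts of TRBJ1 lay in TET. The nucleotide CDR3 of the largest TRBJ1 clonotype is given for the 4 libraries where it held the largest share of counts, with the bases aligned to the J segment in capitals:

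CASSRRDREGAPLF, TRBV13 with TRBJ1-5, WT TET 1 and WT TET 2: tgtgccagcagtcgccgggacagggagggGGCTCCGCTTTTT

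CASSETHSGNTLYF, TRBV13 with TRBJ1-3, WT TET 3: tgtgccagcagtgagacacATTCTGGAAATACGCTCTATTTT

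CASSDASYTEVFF, TRBV13 with TRBJ1-1, mutant TET 3: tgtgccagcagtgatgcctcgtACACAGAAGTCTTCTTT

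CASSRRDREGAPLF had 2261 counts in WT TET library 2, 15.1% of the library and 69.1% of its TRBJ1 counts, and was its largest clonotype. The same nucleotide sequence had 148 counts in WT TET library 1, 2.98% of that library, and it was in no other library. That count is over 10 times lower than in library 2, so it falls under the rule for possible copies between libraries (the same nucleotide sequence at a count at least 10 times higher elsewhere). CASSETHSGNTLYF had 92 counts (3.63%) in WT TET library 3 and was in no other library. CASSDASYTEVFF was the largest clonotype of mutant TET library 3, with 2376 counts or 10.8% of the library. In the other 3 mutant TET libraries the largest TRBJ1 clonotype held 0.60%, 0.23% and 0.15% of counts, and its rank in the library was 13, 14 and 28. In the CD8 libraries it held 0.14% to 0.78%. The largest TRBJ1 clonotype used TRBV13 in 14 of 15 libraries, the exception being TRBV12 with TRBJ1-5 in mutant CD8 library 3.

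Few TRBJ1 receptors recurred. Of 2068 TRBJ1 receptors in TET (V family, J segment and amino acid CDR3), 18 (0.87%) were in at least 3 of the 7 TET libraries and 2 in at least 4, and for TRBJ2 the numbers were 26 of 2770 (0.94%) and 6. The TRBJ1 numbers include possible copies between libraries, so they do not show how many receptors recurred between mice. Without possible copies, each of the 2 receptors is left in fewer than 3 TET libraries. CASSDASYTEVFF was in all 4 mutant TET libraries, at 10, 12, 2376 and 85 counts, and in no WT TET library. It was also in WT CD8 library 1 (28 counts), WT CD8 library 4 (8) and mutant CD8 library 3 (18). A single nucleotide sequence encoded it in all 7 libraries. By the same rule its other 6 occurrences are possible copies of the clonotype with 2376 counts. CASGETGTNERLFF, with TRBV13 and TRBJ1-4, had 19, 50, 3 and 0 counts in mutant TET, 2 counts in WT TET library 2 and 0 in the other 2 WT libraries, and was also in 3 CD8 libraries at 2 to 15 counts. Its 4 occurrences at 2 or 3 counts are possible copies by that rule. It too had a single nucleotide sequence:

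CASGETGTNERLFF: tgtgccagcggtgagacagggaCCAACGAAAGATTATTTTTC

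Of the other 16 recurrent receptors, 8 used TRBV13, 3 TRBV1, 2 TRBV29, 1 TRBV19, 1 TRBV31 and 1 TRBV4, and their mean share over the TET libraries was at most 0.42%. That value is from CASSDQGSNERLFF, with TRBV13 and TRBJ1-4. It had 133 counts (2.68%) in WT TET library 1, 33 in WT TET library 2 and 10 in mutant TET library 2. It was in no CD8 library, and 2 nucleotide sequences encoded it. The 10 counts are possible copies if they carry the sequence of the 133. Others of the 16 also hold possible copies by the 10-fold rule. A TRBV13 with TRBJ1-1 receptor had 1, 15 and 1 counts in mutant TET libraries 1, 2 and 3. A further one had 1, 14 and 1 counts in mutant TET libraries 2, 3 and 4. A TRBV1 with TRBJ1-2 receptor had 12, 1 and 1 counts in mutant TET libraries 1, 2 and 3. Each had a single nucleotide sequence. How many receptors stay in at least 3 TET libraries without possible copies was not counted.

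TRBV13, which also led among TRBJ2 clonotypes, was the V family most often joined to TRBJ1. It made up 58.5%, 65.9% and 54.2% of TRBJ1 clonotypes in WT TET and 46.1%, 49.8%, 50.1% and 43.2% in mutant TET. In CD8 the share lay between 37.1% and 42.7%, below all TET libraries. The difference of TET from CD8 was 13.8 points (exact permutation p = 0.000408, the smallest possible, adjusted p = 0.00694), and 12.8 with the mouse as replicate block (exact sign-flip p = 0.0156, the smallest possible, adjusted p = 0.0531). Each WT TET library lay above each mutant TET library, a difference of -12.2 points for mutant minus WT (exact p = 0.0286, the smallest possible, adjusted p = 0.0694). TRBV13 made up 52.5%, 65.9% and 54.8% of TRBJ2 clonotypes in WT TET and 43.8%, 42.04%, 42.2% and 48.8% in mutant TET. Its share of TRBJ2 clonotypes in CD8 lay between 31.97% and 37.8%. Both orders were thus also seen with TRBJ2, where they were not tested, and are not particular to TRBJ1.

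Relative to all clonotypes of a library, 27 of 30 pairs of a V family and a J cluster differed between TET and CD8 (90%, edgeR), so most V families moved. Among the 15 TRBJ1 pairs 8 were higher, 6 were lower and 1, TRBV29, was not called (-0.34 ± 0.19, edgeR adjusted p = 0.0914), against 43.3% of all pairs higher and 46.7% lower. With TMM factors 6 TRBJ1 pairs were higher and 7 lower, TRBV29 with TRBJ1 being called (-0.70, adjusted p = 0.0015), and with DESeq2 7 were higher and 7 lower. The median log2 fold change was 0.57 over the TRBJ1 pairs and -0.29 over all 30. Pairs had to pass a filter on low clonotype numbers. TRBV2 with TRBJ1, with 213 CD8 clonotypes, passed it through the TET libraries, where it is high. TRBV3, TRBV12, TRBV15, TRBV16 and TRBV17 with TRBJ1 passed it through the CD8 libraries, where they are high. The split of 8 to 6 and the median thus depend on the filter and do not measure how TRBJ1 pairs divide.

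The higher TRBJ1 pairs were led by TRBV20 (2.27 ± 0.21 on the log2 scale) and TRBV31 (2.24 ± 0.23), the family that lies downstream of the J clusters in inverted orientation. TRBV20 made up 2.08% ± 0.52 of TRBJ1 clonotypes in CD8 (n = 8) and 5.63% ± 2.71 in TET (n = 7), and TRBV31 1.77% ± 0.46 and 4.00% ± 2.22. TRBV1 (1.36 ± 0.15), TRBV2 (1.29 ± 0.27), TRBV5 (1.06 ± 0.17), TRBV13 (0.90 ± 0.09), TRBV19 (0.69 ± 0.16) and TRBV4 (0.57 ± 0.20) were also called, with edgeR adjusted p of 0.0070 or less. TRBV4 was not called with DESeq2 (0.27), with TMM factors (0.17) or without mutant TET library 2 (0.49), nor TRBV19 with TMM factors (0.30). In the WT libraries alone TRBV4 (-1.88) and TRBV5 (-0.72) with TRBJ1 had the opposite sign and were not called. These 2 values rest on 1 and 3 WT TET clonotypes.

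The lower TRBJ1 pairs were TRBV12, TRBV16, TRBV15, TRBV3, TRBV17 and TRBV14. TRBV12 with TRBJ1 was found in 835 of 53819 CD8 clonotypes and 1 of 5545 TET clonotypes, 86.0-fold lower (95% exact counting interval 15.4 to 3402), and its fitted log2 fold change was -6.12 ± 0.57. TRBV16 (-3.38 ± 0.35) was left with 9 TET clonotypes, TRBV15 (-2.75 ± 0.46) with 6, TRBV3 (-2.08 ± 0.37) with 12 and TRBV17 (-1.41 ± 0.37) with 14. TRBV14 changed least (-0.62 ± 0.25, edgeR adjusted p = 0.0161). TRBV3, TRBV12 and TRBV17 with TRBJ1 were in no WT TET library. Those libraries held only 41, 41 and 24 TRBJ1 clonotypes, so few would be found there in any case. In the WT libraries alone 7 of 29 pairs were called, 1 TRBJ1 pair higher and 1 lower, and most TET clonotypes behind these values are from mutant mice.

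In 14 of the 15 V families the log2 fold change was higher with TRBJ1 than with TRBJ2, by a median of 0.72. The difference ran from -0.02 in TRBV3 and 0.04 in TRBV17 to 0.99 in TRBV16 and 1.01 in TRBV19. TRBV19 and TRBV4 thus had values of opposite sign with the clusters, 0.69 and 0.57 with TRBJ1 and -0.32 and -0.26 with TRBJ2. The difference was not tested per family. Within mutant and WT TET, 5 TRBJ1 pairs had enough clonotypes to be compared, and none was called (1 of 12 pairs called in all, 8.33%, edgeR). The largest value was 1.68 ± 0.74 higher in the mutant for TRBV5 (edgeR adjusted p = 0.163), and TRBV13 with TRBJ1 was at 0.08 ± 0.22.

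**Figure D4:**
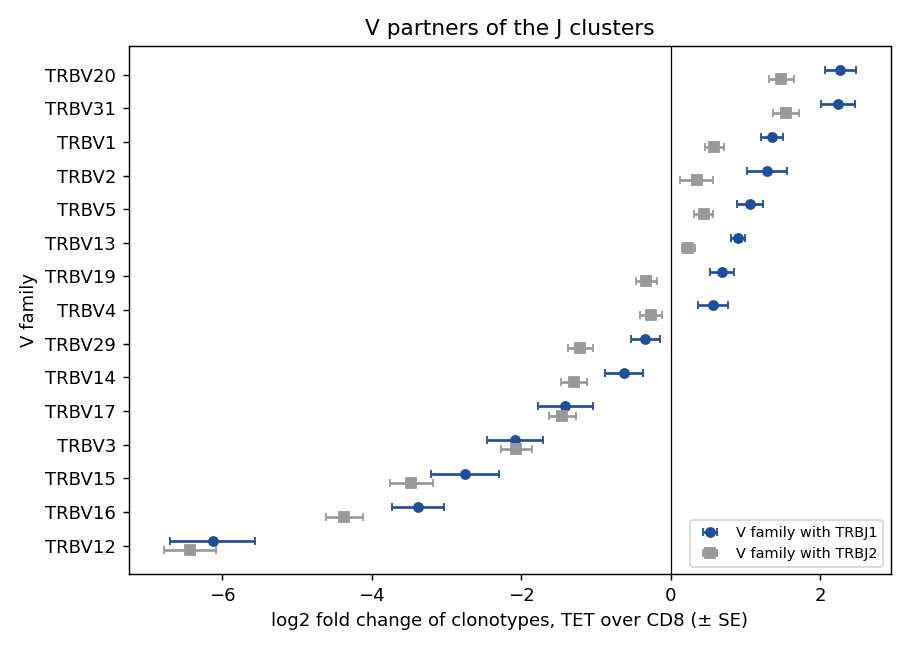
log2 fold change of clonotypes in TET over CD8 (horizontal axis, ± SE from edgeR) for 15 V families with TRBJ1 (circles) and TRBJ2 (squares). The circle lies to the right of the square in 14 of 15 families, from TRBV20 at 2.27 to TRBV12 at -6.12.

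V families differed in how often they used TRBJ1 within CD8, the fraction with the most clonotypes per library. Only families with at least 25 TRBJ1 clonotypes in CD8 were ordered, which left out rarer ones such as TRBV24 (39.0%, from 8 TRBJ1 clonotypes) and TRBV23 (0%). TRBJ1 was used by 33.5% ± 4.36 of TRBV20 clonotypes (n = 8), 33.3% ± 3.93 of TRBV29 and 33.0% ± 3.13 of TRBV19. At the low end were TRBV30 with 13.03% ± 7.19, TRBV17 with 17.2% ± 2.42, TRBV16 with 20.9% ± 2.28 and TRBV15 with 20.96% ± 3.99. TRBV13, at 31.8% ± 2.68, lay near the top with TRBV31 (32.8% ± 6.95) and TRBV1 (32.3% ± 2.81), and neighbours in this order differed by less than their spread. The 6 families that were lower in TET with TRBJ1 used TRBJ1 in 17.2% to 24.4% of their CD8 clonotypes.

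By segment, 73 of 94 V-J pairs (77.7%, edgeR) differed between TET and CD8, and of the 27 TRBJ1 pairs tested 22 were higher and 3 lower (40.4% and 37.2% of all pairs). The 5 highest were TRBV20 with TRBJ1-4 (2.80 ± 0.37, 37 TET clonotypes), TRBV31 with TRBJ1-4 (2.68 ± 0.39, 35), TRBV20 with TRBJ1-1 (2.22 ± 0.35, 38), TRBV1 with TRBJ1-2 (1.78 ± 0.35, 33) and TRBV20 with TRBJ1-3 (1.63 ± 0.43, 21). The 3 lower pairs were TRBV16 with TRBJ1-1 (-2.57 ± 0.48, 5 TET clonotypes) and a further 2 that no TET library held. TRBV12 with TRBJ1-2 had 0 of 5372 assigned TET clonotypes against 242 in CD8, which makes it at least 8.36-fold lower from a floor of 3 clonotypes over the group, and TRBV16 with TRBJ1-4 had 0 against 217, at least 7.49-fold lower. TRBV13 was higher with each of the 6 segments, from 0.61 ± 0.17 with TRBJ1-6 to 1.26 ± 0.19 with TRBJ1-5. The filter on low numbers was passed only by pairs with enough clonotypes in some libraries. The 5 highest pairs had 51, 58, 81, 99 and 67 of 51857 assigned CD8 clonotypes in the order given, so they passed it through the TET libraries, where they are high. The split of 22 to 3 thus depends on the filter and is no measure of how TRBJ1 pairs divide. Without the filter 116 of 233 pairs were called, 32 TRBJ1 pairs higher and 19 lower.

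TRBJ1 receptors had slightly shorter CDR3s than TRBJ2 receptors in CD8. The mean length of TRBJ1 clonotypes was 13.8 ± 0.04 residues (n = 8) and was shorter than that of TRBJ2 in all 8 CD8 libraries (differences from -0.19 to -0.09), with a mean difference of -0.13 ± 0.03 (exact sign-flip p = 0.00781, adjusted p = 0.0347). In TET the difference was 0.01 ± 0.23, with 4 of 7 libraries above 0 (exact p = 0.953, adjusted p = 0.953). Lengths of 14 residues were the most frequent in all groups, 32.8% ± 1.25 of TRBJ1 clonotypes in WT CD8 and 33.6% ± 1.28 in mutant TET, against 28.9% ± 0.76 and 26.98% ± 1.03 of TRBJ2 clonotypes. Lengths of 16 residues were rarer with TRBJ1 than with TRBJ2, 6.33% ± 0.95 against 9.67% ± 0.12 in WT CD8.

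TRBJ1 CDR3s were shorter in WT TET than in mutant TET. The library means were 13.7, 13.6 and 13.5 residues in WT TET and 13.9, 13.9, 13.9 and 13.9 in mutant TET, with no overlap. The difference of 0.32 residues had the smallest exact p possible (0.0286, adjusted p = 0.0694) and did not pass after adjustment. TET as a whole differed from CD8 by -0.07 residues (exact p = 0.203, adjusted p = 0.314). Within mice, TRBJ1 CDR3s were shorter in TET than in CD8 in all 3 WT mice (differences of -0.06, -0.23 and -0.33 residues) and longer in all 4 mutant mice (0.12, 0.01, 0.04 and 0.11).

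The segments ordered by length as their germline ends do only in part. In CD8 the mean length was 13.4 ± 0.06 residues with TRBJ1-1, 13.6 ± 0.07 with TRBJ1-2, 13.7 ± 0.12 with TRBJ1-5, and 14.2 with TRBJ1-3 (± 0.07), TRBJ1-6 (± 0.07) and TRBJ1-4 (± 0.10). The last 3 did not differ beyond their spread. The CDR3 bases aligned to the J segment numbered 18.1 ± 0.24 in TRBJ1-1, 18.8 ± 0.13 in TRBJ1-2 and 19.4 ± 0.21 in TRBJ1-5. They numbered 20.6 ± 0.21 in TRBJ1-4, 21.2 ± 0.20 in TRBJ1-6 and 21.6 ± 0.19 in TRBJ1-3. Such alignments can run past the start of the segment. For TRBJ1-3 they averaged 22.3 bases in mutant TET library 2, above the 22 bases printed as its untrimmed part. The means are thus not the number of bases that the segment itself gave.

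TRBD1 was named in most TRBJ1 junctions and TRBD2 in few. In CD8, TRBD1 was named in 60.5% ± 1.62 of TRBJ1 clonotypes, TRBD2 in 6.09% ± 0.37 and no D segment in 33.5% ± 1.60 (n = 8). Among TRBJ2 clonotypes of the same libraries TRBD2 was named in 43.8% ± 0.50. The share with TRBD2 was lower with TRBJ1 in all 8 CD8 libraries, by 37.7 points on average (difference -37.7, exact sign-flip p = 0.00781, adjusted p = 0.0347), and in all 7 TET libraries (difference -33.8, exact p = 0.0156, the smallest possible, adjusted p = 0.0531). With TRBD2 downstream of TRBJ1, the order of the locus sets this direction in advance, so these tests add little beyond the size of the difference. TRBD2 matches next to TRBJ1 were shorter than next to TRBJ2 in CD8, 7.06 ± 0.19 against 9.28 ± 0.06 bases, and TRBD1 matches next to TRBJ1 had 7.67 ± 0.11. Whether TRBD2 calls in TRBJ1 junctions are real joins or chance matches of short sequences was not tested.

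The TRBD2 share of TRBJ1 clonotypes did not differ between TET and CD8 beyond the spread. It was 0%, 7.32% and 4.17% in WT TET, from 0, 3 and 1 clonotypes, and 7.05%, 4.77%, 5.52% and 8.63% in mutant TET. In CD8 it was 5.60% to 6.82%. The difference was -0.93 points (exact permutation p = 0.446, adjusted p = 0.505), -2.53 without clonotypes of a single count (exact p = 0.00776, adjusted p = 0.0278) and 0.03 without WT TET library 1.

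**Figure D5:**
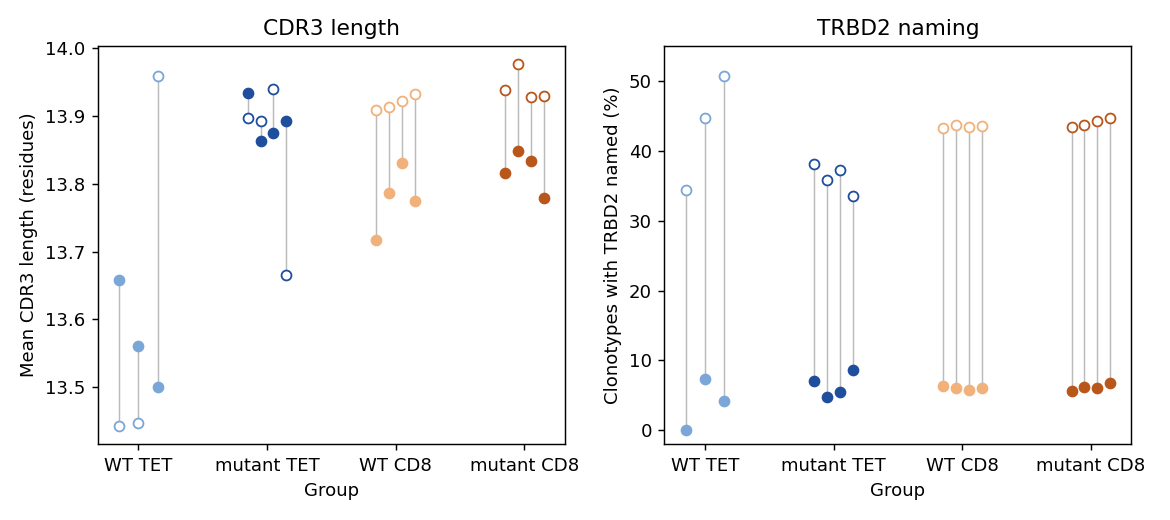
Mean CDR3 length in residues (left) and share of clonotypes with TRBD2 named (%, right) in each library by group, for TRBJ1 (filled circles) and TRBJ2 (open circles), with a line joining the values of a library. TRBJ1 lies below TRBJ2 in length in all 8 CD8 libraries, and the TRBD2 share of TRBJ1 is at most 8.63% in every library. The left axis does not start at 0.

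The family whose use was most like that of TRBJ1 over the 15 libraries was sought among TRBJ2 clonotypes, which share no clonotype with the members. By the root mean square difference of centred log2 shares, with a pseudocount of 0.5 clonotypes, TRBV4 (0.23), TRBV13 (0.34) and TRBV1 (0.36) were nearest. These distances only rank the families and do not show a common pattern. TRBV4 made up 4.42% ± 1.01 of TRBJ2 clonotypes in TET and 4.26% ± 0.28 in CD8, so it did not share the higher TRBJ1 share in TET. Among the segments, TRBJ1-3 was nearest to TRBJ1-4 (0.22) and to TRBJ1-1 (0.22), TRBJ1-6 was nearest to TRBJ1-1 (0.36), and TRBJ1-5 was farthest from the other members, its nearest segment being TRBJ1-2 at 0.42.

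Few TET clonotypes were present in the CD8 fraction of their own mouse as well. They were 0, 1 and 2 of the TRBJ1 clonotypes in WT TET and 17, 18, 6 and 3 in mutant TET, between 0% and 8.33% of those in a library. In mutant TET library 3 they held 27.4% of the TRBJ1 counts, of which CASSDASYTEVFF alone held 26.5%. That clonotype had 18 counts in the CD8 library, a possible copy by the 10-fold rule.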

How the data were processed

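TCRβ transcripts were amplified by 5′ RACE with a 9-nucleotide molecular identifier and nested PCR, per the labels' protocols. Each deposited table gives, per the file headers, the count and the fraction of each nucleotide CDR3 of 1 library, with V family, D gene, J cluster and alignment positions. The sources used here do not state whether the authors' counts are reads or molecules. The aligner and build: not given in the sources used here. Counts without stated molecules are not independent, so intervals cover counting error only. Samples may differ technically as well as between mice.

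From these counts, 4 entries with an alpha-chain gene (6 counts) were dropped. The deposited fraction column entered no calculation, and shares were taken from the remaining counts. TRBJ1 members and all lists were chosen with earlier results of these data known. Shares, lengths and D names were tested by exact permutation (two-sided), within strains for TET against CD8, and by exact sign-flip tests within libraries, with Benjamini-Hochberg adjustment over 17 tests (called under 0.05). Segments and pairs were fitted over all clonotypes with the quasi-likelihood test of edgeR 4.0.16 (R 4.3.3, library size the number of clonotypes, low-count minimum 10, adjusted over all features). DESeq2 1.42.0, TMM factors, no filter, other clonotype definitions, equal depth (for the TRBJ1 share only), single strains and each library left out were alternatives. The fit was tested on simulated data. Python 3.11.15 with scipy 1.17.1 was used.

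Named were all 6 segments, V families with at least 3% of TRBJ1 clonotypes in TET or CD8 or a call, the 5 called V-segment pairs at either end of the log2 fold change (3 fell), the largest TRBJ1 clonotype of a library and TRBJ1 receptors in at least 3 TET libraries. The series' design text names both fractions of the same mice, so a shared strain and number was read as the same mouse, and 7 mice have both fractions here. As a check, deviations of the 12 J segment shares correlated between own libraries at -0.74 to 0.65, and own was highest in 2 of 7. The TET library of WT mouse 4 was not analysed here.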

Additional observations from a re-analysis of the deposited data

Results flagged for a closer look

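The TRBJ1 share of mutant TET library 4, 35.4%, lay apart from the other 3 of its group, which held 43.3% to 44.8%. That library also had the fewest mutant TET clonotypes (393) and the most counts (60164). The TRBJ1-6 share of mutant CD8 library 2, 3.70%, lay apart from the other 3, which held 3.22% to 3.27%. These were 2 of 36 groups looked at, and chance alone sets apart about 1 in 20 groups.

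The strain difference differed between TET and CD8 by an interaction term (edgeR) for 4 segments. On the log2 scale TRBJ1-6 stood at 1.26 and TRBJ1-3 at 1.03, followed by TRBJ1-1 at 0.75 and TRBJ1-4 at 0.74. In 3 further measures the TET library lay on one side of the CD8 library of the same mouse in all 3 WT mice and on the other side in all 4 mutant mice. The measures looked at were the TRBJ1 shares of clonotypes and of counts, the share of each TRBJ1 segment, and the TRBD2 and TRBV13 shares. Mean CDR3 length and the clone size difference between the clusters were looked at too. No TRBJ2 segment was, so the pattern is not shown to be particular to TRBJ1. The mean TET minus CD8 difference was larger in the mutant by 0.28 residues for the TRBJ1 CDR3 length, by 3.04 percentage points for the TRBJ1-3 share and by 2.50 points for the TRBJ1-6 share. For the length and for the shares as such this difference was not tested. The WT TET values rest on 24 to 41 TRBJ1 clonotypes per library.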

How the results depend on the processing

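Of 633 alternatives for named segments and pairs, 553 kept direction and side of the threshold, 74 lost the call and 5 reversed, all 5 in the WT libraries alone (TRBJ1-1 -0.14, TRBJ1-3 -0.37, TRBJ1-6 -0.79, TRBV4 -1.88 and TRBV5 -0.72, with TRBJ1). Of 411 for the comparisons, 333 were the same, 28 lost the call, 13 reversed, 36 counts of calls moved by over 1.5 times and 1 gained the call. WT TET holds the fewest clonotypes, and the part of depth in these changes was not tested.

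The TRBJ1 share difference lost its call without single-count clonotypes (7.90), at equal depth (6.99) and with the replicate block (9.69), and was 7.06 to 10.9 with 1 library left out, where the call was lost in 8 of 15 cases. The TRBV13 share lost its call with the block (12.8, exact p at its smallest). The block changed no other call among the exact tests. By counts the TRBJ1 difference ran from -5.45 to 2.18 with 1 library left out. It was 3.55 without WT TET library 2 and mutant TET library 4 together, an alternative chosen after seeing the data. In that setting the clone size difference was 0.0581 between TET and CD8 and 0.0369 within TET (-0.58 to -0.17 with 1 library left out).

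The TRBD2 share difference was -2.53 without single-count clonotypes, -2.16 without the same library pair and -1.80 to 0.0288 with 1 library left out. The length difference within TET turned to -0.00425 without single-count clonotypes, -0.000264 over amino acid clonotypes, -0.0586 without cross-library copies and -0.0599 without that library pair, and ran from -0.0309 to 0.0834 with 1 library left out. Within CD8 the length difference was -0.14 to -0.12 and the TRBD2 difference -37.8 to -37.6 with 1 library left out, and both calls were lost because 7 libraries allow no exact p below 0.0156.

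Called J segments for TET against CD8 numbered 1 in the WT libraries alone, and 10 with the replicate block. Within TET they numbered 0 to 2, and within CD8 0 with DESeq2 and 0 to 3 with 1 library left out. For the strain difference between fractions they numbered 2 with TMM factors, 2 with DESeq2, 0 without cross-library copies, 0 to 6 with 1 library left out and 0 without the pair. By counts they numbered 1 with TMM factors, 3 with DESeq2, 0 to 2 with 1 library left out and 3 without the pair. V family by cluster pairs numbered 7 in the WT libraries alone. Between strains in TET they numbered 0 without single-count clonotypes, 0 to 1 with 1 library left out and 0 without the pair. V by segment pairs numbered 116 without the filter, 48 without single-count clonotypes and 3 in the WT libraries alone. Unless stated, the cause was not tested. The V by cluster fit without a filter could not be fitted.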

Other observations

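Some TET clonotypes were shared with the CD8 fraction of their own mouse. Shared TRBJ2 clonotypes held 42.2%, 7.83% and 0% of TRBJ2 counts in WT TET libraries, against 7.46%, 11.5%, 27.1% and 42.2% in mutant TET libraries. Shared TRBJ1 clonotypes held 0%, 0.061% and 9.68% of TRBJ1 counts in WT TET libraries, against 4.23%, 2.42%, 27.4% and 12.96% in mutant TET libraries. The TRBJ1 value was the lower in 5 of 7 mice, and the difference was not tested.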
